A study of Mus musculus with 12 samples.

Results

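The 10 genes described here, *Tbccd1*, *Ccdc116*, *Ydjc*, *Nup88*, *Rpain*, *Tbcb*, *Polr2i*, *Alkbh2*, *Ung* and *Nabp1*, were chosen by a weaker response to tunicamycin (TM) in the liver of Atf6a-/- mice than of wild-type mice in these data, and because each lies next to another gene with the same pattern. All probesets that the platform annotation gives to exactly 1 of them were taken, which made 18 of the 45037 probesets tested. All 10 genes had at least 1 such probeset, out of 18193 genes with a probeset of their own. Total RNA from homogenized liver of 12 mice was hybridized to 1-colour Affymetrix arrays, with an array for each animal. There were 3 animals in each of 4 groups: Atf6a-/- mice given 2 mg/kg TM in dextrose, Atf6a-/- mice given dextrose alone (vehicle), wild-type (Atf6a+/+) mice given the same dose of TM and wild-type mice given vehicle, each injected intraperitoneally and killed 8 h later. The animals were fasted before death and of mixed age and sex, and the sources used here give neither the strain nor the part of the gene deleted. Values are log2 intensities after RMA (robust multi-array average), so a difference of 1 is a doubling, and precision is limited by 3 arrays per group.

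ATF6α sits in the endoplasmic reticulum (ER) membrane. When unfolded protein accumulates it moves to the Golgi apparatus, is cut there by proteases, and its freed cytosolic part enters the nucleus as a transcription factor that acts with NF-Y at ER stress elements, for which ER chaperone genes are best known. TM blocks N-linked glycosylation and so provokes ER stress. Neighbouring genes that start close together on opposite strands can share one promoter region. Most of the genes described here do not belong to the ER: they encode a tubulin folding cofactor and a related protein, a nuclear pore protein, an RNA polymerase II subunit and proteins that repair or bind DNA.

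All 7 measured hepatocyte markers of 8 listed lay between 13.89 and 14.96 on every array, and none of them was called in any of the contrasts tested. Arrays of the same group correlated at 0.987 to 0.996 over all probesets, and array medians lay between 4.98 and 5.11. In each group 1 array had *Eif2s3y*, which is Y-linked, high and *Xist* low. None of the 19 listed markers of leukocytes, endothelium, cholangiocytes and stellate cells was called between the genotypes under TM or in the difference in response. With TM against vehicle, 6 of them were called lower and 1 higher in Atf6a-/- livers, and 3 lower in wild-type livers, and their part in the results was not tested. The *Atf6* probeset, which may lie outside the deleted part, read 10.19, 9.76 and 10.50 in Atf6a-/- TM livers and 7.03, 7.15 and 7.79 in Atf6a-/- vehicle livers, against 10.75, 11.16 and 11.01 in wild-type TM livers and 8.74, 9.47 and 8.90 in wild-type vehicle livers. It was lower in Atf6a-/- livers on every array of the vehicle groups, by 1.71 ± 0.24 (SE) on the log2 scale with an adjusted p of 0.18.

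The members fell into 6 loci, placed here on GRCm38.p6 with the RefSeq annotation. *Tbccd1* (chr16:22813214-22857695) lay 149 bases from *Dnajb11* (chr16:22857845-22879634). *Ccdc116* (chr16:17139064-17147802) overlapped *Ydjc* (chr16:17146949-17148857) by 854 bases and lay 6680 bases from *Sdf2l1* (chr16:17130138-17132383). *Nup88* (chr11:70943058-70969973) and *Rpain* (chr11:70970130-70977933) were 156 bases apart. *Tbcb* (chr7:30224129-30232197) overlapped *Polr2i* (chr7:30232074-30233387) by 124 bases, and *Alkbh2* (chr5:114123926-114131233) overlapped *Ung* (chr5:114130366-114139321) by 868 bases. *Nabp1* (chr1:51464968-51478475) stood apart from its neighbours. The span of *Gm17767*, a long non-coding RNA gene (chr1:51509505-51596718), lay 31029 bases away. That of *Cavin2* (chr1:51289126-51302960) lay 162007 bases away on the other side. *Gm17767* runs on the minus strand with its start at the edge away from *Nabp1*, and the starts of these genes lay 118319 bases apart. Whether any probe lies in an overlap between 2 genes was not tested.

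Promoter windows, from 250 bases before to 50 bases after an annotated start, were found in the RefSeq table for 8 of the 10 members, and not for *Tbccd1* and *Ydjc*. In that table *Nup88* and *Rpain* started 226 bases apart and ran away from each other, as did *Tbcb* and *Polr2i* (683 bases apart) and *Alkbh2* and *Ung* (2217 bases apart). The listed starts of *Tbcb* and *Alkbh2* lay inside their gene spans, which overlap those of their partners, so these distances hold for the listed starts alone. *Ccdc116* and *Sdf2l1* lay on the same strand, as did *Nabp1* and *Gm17767*. Windows of 3 members and 1 partner are printed here 5′ to 3′, cut at 20 bases after the start, with every match to a searched motif in capitals. They were picked for the ERSE-II of *Dnajb11*, the region shared by *Rpain* and *Nup88*, and the matches in *Polr2i* and *Nabp1*, and matches in other windows are not shown.
*Dnajb11* (partner of *Tbccd1*, covers the gap between them; chr16:22857595-22857864, plus strand): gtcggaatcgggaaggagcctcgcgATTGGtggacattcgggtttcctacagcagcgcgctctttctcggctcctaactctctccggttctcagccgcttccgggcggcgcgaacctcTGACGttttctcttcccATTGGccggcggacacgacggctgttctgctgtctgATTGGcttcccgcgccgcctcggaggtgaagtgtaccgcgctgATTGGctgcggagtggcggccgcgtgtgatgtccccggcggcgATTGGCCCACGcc
*Rpain* (holds the starts of both *Rpain* and *Nup88*; chr11:70969949-70970218, plus strand): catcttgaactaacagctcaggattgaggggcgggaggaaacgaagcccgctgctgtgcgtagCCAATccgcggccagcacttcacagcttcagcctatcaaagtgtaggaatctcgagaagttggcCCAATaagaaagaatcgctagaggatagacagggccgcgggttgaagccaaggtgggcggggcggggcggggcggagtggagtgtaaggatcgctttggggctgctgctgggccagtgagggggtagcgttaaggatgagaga
*Polr2i* (chr7:30231824-30232093, plus strand): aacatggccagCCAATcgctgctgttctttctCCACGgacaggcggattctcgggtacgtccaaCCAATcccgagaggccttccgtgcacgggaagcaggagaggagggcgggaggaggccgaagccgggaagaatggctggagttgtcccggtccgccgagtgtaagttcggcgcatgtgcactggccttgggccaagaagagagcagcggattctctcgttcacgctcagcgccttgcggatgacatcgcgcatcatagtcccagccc
*Nabp1* (chr1:51478380-51478649, minus strand): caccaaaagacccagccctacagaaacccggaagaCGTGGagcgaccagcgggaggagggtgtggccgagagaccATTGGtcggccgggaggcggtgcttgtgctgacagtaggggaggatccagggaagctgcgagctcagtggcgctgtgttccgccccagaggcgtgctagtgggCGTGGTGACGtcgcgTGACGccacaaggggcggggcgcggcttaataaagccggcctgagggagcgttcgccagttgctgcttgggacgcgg

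Of the 7 motifs searched on both strands, none of the 3 long ones was found in the window of a member. These were the ER stress element, ERSE (CCAAT, then any 9 bases, then CCACG, in 0.119% of all 32851 windows), ERSE-II (ATTGG, any base, CCACG, in 0.0365%) and the core of the unfolded protein response element (TGACGTG, in 2.01%). The amino acid response element core (TGATGCAA, in 0.895%) was not found either. ERSE-II stood once in the window of the partner *Dnajb11*, 7 to 17 bases past the start, which is one of 12 windows in all that held it. The NF-Y box (CCAAT, or ATTGG on the other strand, which also forms part of ERSE and ERSE-II) was in the windows of 5 of 8 members, *Ccdc116*, *Nabp1*, *Nup88*, *Polr2i* and *Rpain*, against 37.4% of all windows. The 2 boxes counted for *Nup88* and the 2 counted for *Rpain* are the same letters, read from either side. The far end of ERSE (CCACG) was in the windows of *Ccdc116*, *Nabp1*, *Nup88*, *Polr2i* and *Tbcb*, against 32.8% of all windows. A member was counted if any of its windows held a motif, and *Ccdc116* had 3 windows. The shares of all windows are per window, so the 2 are not counted alike. The letters TGACG, found in cAMP response elements and also part of TGACGTG, were found in *Nabp1* alone among the members, 2 times within 67 bases before the start, against 20.8% of all windows. The windows of *Alkbh2* and *Ung* held none of the 7 motifs. The window of *Alkbh2*, on the minus strand, lay around a start at 114128218, inside a span that reaches 114131233. That of *Tbcb*, also on the minus strand, lay around 30231391 in a span that reaches 30232197. The sequence at those span ends was not searched, so the absence of a motif holds for the windows alone. GC content ran between 49.7% and 66.0% in the members' 10 windows (3 of them of *Ccdc116*), with a median of 60.8%, against a median of 52.7% over all windows.

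A probeset was called where limma gave an adjusted p under 0.05 (Benjamini-Hochberg over all 45037 probesets) and the groups differed by over 1.5-fold. The members had been chosen on these responses, so their counts and values under TM are a description and carry no test. In Atf6a-/- livers 7 of the 18 member probesets were called higher and 2 lower with TM than with vehicle, where 10.6% and 5.95% of all probesets were. Several of these are probesets of *Nabp1* or *Rpain*. By brightest probeset 4 of the 10 genes were called higher and 1 lower, where 13.1% and 8.21% of all genes were. In wild-type livers 17 were called higher and 0 lower, where 7.10% and 4.95% of all probesets were. Between the genotypes under TM 16 were called lower in Atf6a-/- and 0 higher (1.19% and 1.92% of all probesets), and 13 had a difference in response called lower and 0 higher (0.582% and 0.655%). The 3 Atf6a-/- TM livers lay below the 3 wild-type TM livers without overlap on 17 of 18 member probesets, a pattern seen on 9.24% of all probesets, with the reverse on 10.2%. Each gene is given below by its brightest probeset unless another is named.

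**Figure D1:**
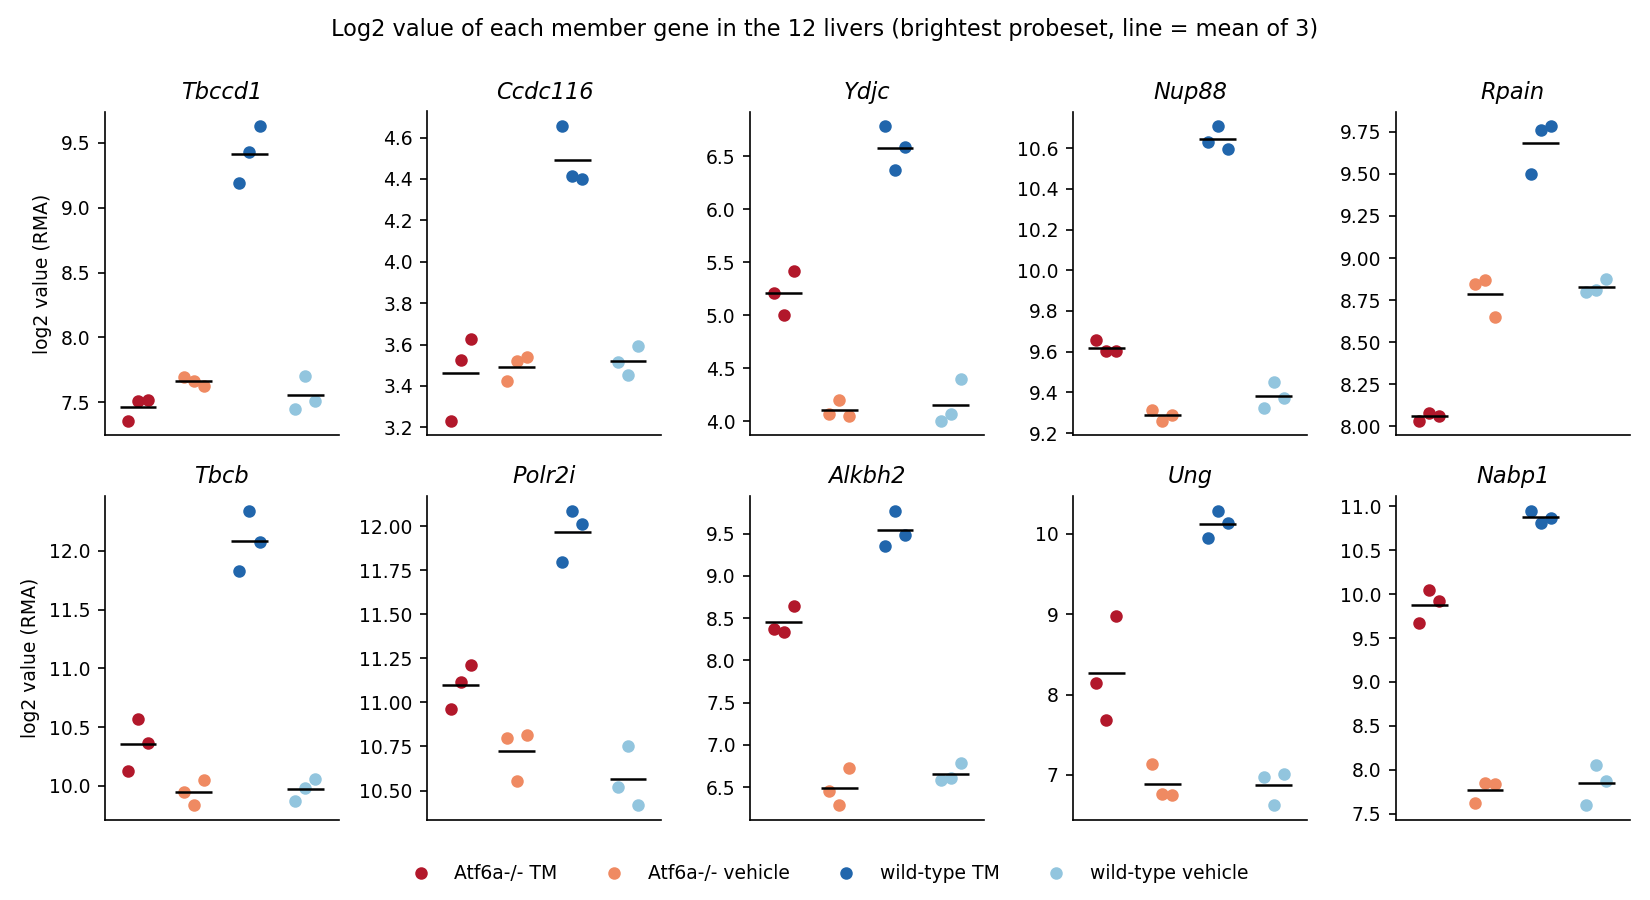
Log2 value of the brightest probeset of each of the 10 members, 1 point per liver and a line at the mean of 3, with a separate vertical axis for each gene. In every panel the 3 wild-type TM livers lie above the other 9, and the Atf6a-/- TM livers lie below Atf6a-/- vehicle livers for *Rpain* (8.03 to 8.08 against 8.65 to 8.87) and well above them for *Nabp1* (9.67 to 10.05 against 7.62 to 7.85).

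In the loci that hold a gene for an ER protein, *Tbccd1* and *Ccdc116* showed almost no TM response in Atf6a-/- livers, whereas *Ydjc* did respond. For *Ccdc116* this rests on a dim probeset. *Tbccd1*, whose human protein carries a tubulin cofactor C domain and helps to place the centrosome and Golgi, read 7.36, 7.51 and 7.52 in Atf6a-/- TM livers and 7.70, 7.66 and 7.63 in Atf6a-/- vehicle livers. It read 9.19, 9.43 and 9.63 in wild-type TM livers and 7.45, 7.71 and 7.51 in wild-type vehicle livers. Thus, only the wild-type TM livers stood high, and the Atf6a-/- TM livers lay just under their vehicle controls without overlap. The TM response was -0.20 ± 0.11 in Atf6a-/- and 1.86 ± 0.11 (3.63-fold) in wild-type livers (log2 ± SE), a difference of -2.06 ± 0.16. A second, dimmer probeset gave 0.11 ± 0.18 and 1.97 ± 0.18.

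Its partner *Dnajb11*, which encodes the ER co-chaperone ERdj3 of the chaperone BiP, behaved differently in Atf6a-/- livers. *Dnajb11* read 11.28, 11.26 and 11.56 in Atf6a-/- TM livers and 10.51, 10.04 and 10.33 in Atf6a-/- vehicle livers, against 12.71, 12.99 and 12.67 in wild-type TM livers and 10.09, 10.27 and 10.18 in wild-type vehicle livers. Its TM response was 1.07 ± 0.14 in Atf6a-/- and 2.61 ± 0.14 in wild-type livers. So 41.1% of the wild-type log2 response was seen in Atf6a-/- livers for *Dnajb11*, against -10.8% for *Tbccd1*.

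In the second such locus, *Sdf2l1*, an ER lumenal protein of the chaperone cycle, had a TM response of 1.97 ± 0.24 in Atf6a-/- and 4.15 ± 0.24 (17.7-fold) in wild-type livers. *Ccdc116*, a coiled-coil protein gene next to it, read 3.23, 3.53 and 3.63 in Atf6a-/- TM livers and 3.42, 3.52 and 3.54 in Atf6a-/- vehicle livers, and 4.65, 4.41 and 4.40 in wild-type TM livers against 3.52, 3.45 and 3.59 in wild-type vehicle livers. All 12 values lay below the array medians, so its fold is that of a dim probeset. The 3 wild-type TM livers stood apart and the other groups overlapped, with responses of -0.03 ± 0.11 and 0.97 ± 0.11 (1.96-fold) in Atf6a-/- and wild-type livers.

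*Ydjc*, named for its likeness to a bacterial sugar deacetylase, read 5.21, 5.00 and 5.41 in Atf6a-/- TM livers and 4.07, 4.20 and 4.05 in Atf6a-/- vehicle livers. It read 6.78, 6.37 and 6.58 in wild-type TM livers and 4.01, 4.07 and 4.40 in wild-type vehicle livers. Both TM groups lay above their controls, and the Atf6a-/- TM livers fell between. The vehicle values lay below the array medians, so the folds and the share that follow rest on a dim baseline. The response was 1.10 ± 0.14 (2.15-fold) in Atf6a-/- and 2.42 ± 0.14 (5.36-fold) in wild-type livers. The share of the wild-type log2 response was thus 45.5% for *Ydjc* and 47.4% for *Sdf2l1*, but -3.29% for *Ccdc116*, which lies between them. The share for *Ccdc116* comes from values below the array medians on all arrays and is poorly known.

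*Rpain*, which carries replication protein A into the nucleus in human cells, moved in opposite directions in the 2 genotypes. It read 8.03, 8.08 and 8.06 in Atf6a-/- TM livers and 8.84, 8.87 and 8.65 in Atf6a-/- vehicle livers, against 9.50, 9.76 and 9.78 in wild-type TM livers and 8.80, 8.81 and 8.87 in wild-type vehicle livers. The 2 vehicle groups overlapped, with wild-type TM above and Atf6a-/- TM below both. The TM response was -0.73 ± 0.10 in Atf6a-/- (0.603-fold) and 0.85 ± 0.10 (1.81-fold) in wild-type livers, a difference of -1.58 ± 0.14. A second probeset gave -0.66 ± 0.10 and 0.72 ± 0.10. The third lay below the array median on all 12 arrays, was called in none of the contrasts, and was the one member probeset whose TM groups overlapped. With the mean of all 3 probesets in place of the brightest, the responses were -0.54 and 0.49, both under 1.5-fold and so not called, and the difference was -1.03.

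Its partner *Nup88*, a nucleoporin of the cytoplasmic face of the nuclear pore, read 9.66, 9.60 and 9.60 in Atf6a-/- TM livers and 9.31, 9.26 and 9.29 in Atf6a-/- vehicle livers. It read 10.63, 10.71 and 10.59 in wild-type TM livers and 9.32, 9.45 and 9.37 in wild-type vehicle livers. The replicates were close, and each TM group stood above its controls. The response was 0.33 ± 0.08 (1.26-fold) in Atf6a-/- and 1.26 ± 0.08 (2.40-fold) in wild-type livers. The starts of *Nup88* and *Rpain* lie in one printed window, yet under TM in Atf6a-/- livers one gene read above and the other below its vehicle controls.

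*Tbcb* and *Polr2i* were alike. *Tbcb*, tubulin folding cofactor B, read 10.12, 10.57 and 10.37 in Atf6a-/- TM livers and 9.95, 9.84 and 10.05 in Atf6a-/- vehicle livers, against 11.82, 12.34 and 12.07 in wild-type TM livers and 9.88, 9.99 and 10.06 in wild-type vehicle livers. *Polr2i*, which encodes the small RNA polymerase II subunit RPB9, read 10.96, 11.12 and 11.21 in Atf6a-/- TM livers and 10.80, 10.55 and 10.82 in Atf6a-/- vehicle livers, against 11.80, 12.09 and 12.02 in wild-type TM livers and 10.52, 10.75 and 10.42 in wild-type vehicle livers. For both genes the Atf6a-/- TM livers lay narrowly above their controls without overlap and far below the wild-type TM livers. In Atf6a-/- livers the TM response was 0.41 ± 0.14 (1.33-fold) for *Tbcb* and 0.37 ± 0.12 (1.30-fold) for *Polr2i*. Neither was called, because both were under 1.5-fold, while their adjusted p lay under the limit. In wild-type livers it was 2.10 ± 0.14 (4.30-fold) and 1.40 ± 0.12 (2.65-fold), so the share of the wild-type log2 response was 19.3% and 26.7%.

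*Alkbh2* and *Ung*, both genes of DNA repair, still responded by over 2-fold in Atf6a-/- livers. *Alkbh2*, a dioxygenase that removes alkyl groups from DNA bases directly, read 8.37, 8.34 and 8.65 in Atf6a-/- TM livers and 6.45, 6.29 and 6.73 in Atf6a-/- vehicle livers. It read 9.36, 9.77 and 9.49 in wild-type TM livers and 6.58, 6.60 and 6.79 in wild-type vehicle livers. None of the TM livers of either genotype overlapped its controls. The response was 1.96 ± 0.14 (3.90-fold) in Atf6a-/- and 2.88 ± 0.14 (7.37-fold) in wild-type livers.

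Its partner *Ung*, the uracil-DNA glycosylase that opens base excision repair, read 8.15, 7.69 and 8.97 in Atf6a-/- TM livers and 7.14, 6.76 and 6.75 in Atf6a-/- vehicle livers, against 9.95, 10.29 and 10.13 in wild-type TM livers and 6.98, 6.62 and 7.01 in wild-type vehicle livers. The Atf6a-/- TM livers were spread over more than 1 log2 unit, the widest of any member's brightest probeset in any group, and still lay between the controls and the wild-type TM livers. The response was 1.38 ± 0.25 (2.61-fold) in Atf6a-/- and 3.25 ± 0.25 (9.52-fold) in wild-type livers. That is 42.6% of the wild-type log2 response for *Ung* and 68.1% for *Alkbh2*.

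*Nabp1*, a single-strand DNA binding subunit of the SOSS complex, had 6 probesets, which fell into 2 kinds. The brightest read 9.67, 10.05 and 9.92 in Atf6a-/- TM livers and 7.62, 7.85 and 7.84 in Atf6a-/- vehicle livers, against 10.95, 10.81 and 10.87 in wild-type TM livers and 7.60, 8.06 and 7.87 in wild-type vehicle livers. It and 3 others kept 69.6% to 82.9% of the wild-type log2 response in Atf6a-/- livers. The probeset at 82.9% lay below the array medians in the Atf6a-/- vehicle livers and in wild-type vehicle replicate 1, so that share rests on a dim baseline. The 2 dimmest of the 6 lay below the array medians in all vehicle livers and kept 17.4% and 18.7%. The brighter of these read 5.24, 5.19 and 5.10 in Atf6a-/- TM livers and 4.59, 4.69 and 4.97 in Atf6a-/- vehicle livers, against 6.95, 7.25 and 6.70 in wild-type TM livers and 4.47, 4.69 and 4.39 in wild-type vehicle livers. Its response was 0.43 ± 0.14 in Atf6a-/- and 2.45 ± 0.14 in wild-type livers, a difference of -2.03 ± 0.20, against -0.92 ± 0.19 for the brightest probeset. Of the 6, the brightest probeset and this one had a difference in response that was called. The call on the brightest probeset was lost when any array other than Atf6a-/- TM replicate 2 or wild-type vehicle replicate 2 was left out. Which transcripts the 6 probesets read was not examined.

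**Figure D2:**
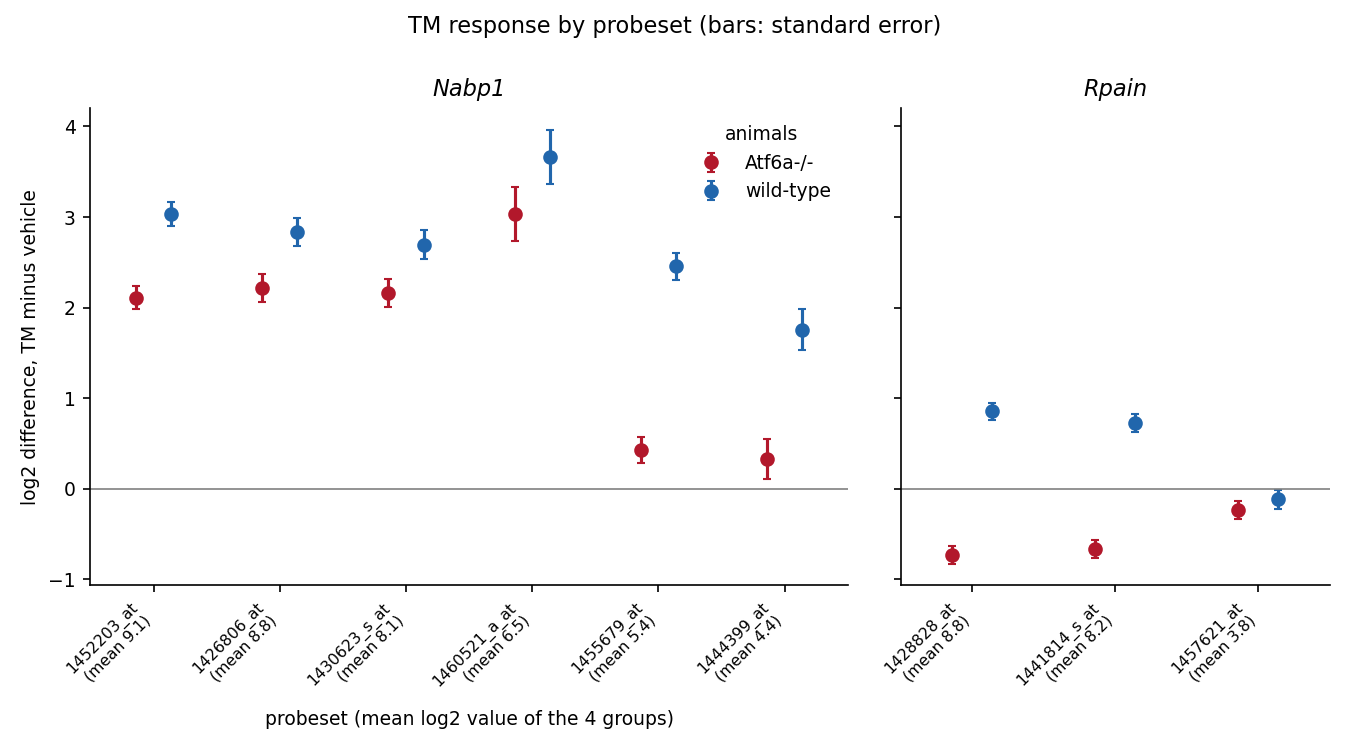
TM response (log2, TM minus vehicle, bars are standard errors) of each probeset of *Nabp1* and *Rpain* in Atf6a-/- and wild-type livers, brightest probeset first. The first 4 probesets of *Nabp1* lie at 2.11 or above in Atf6a-/- livers and the last 2 at 0.43 and 0.33, and the first 2 of *Rpain* lie below 0 in Atf6a-/- and above 0 in wild-type livers.

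The neighbour of *Nabp1* on the side of higher coordinates, *Gm17767*, had the steepest response of all the genes in these loci. It read 8.53, 7.89 and 8.18 in Atf6a-/- TM livers and 4.44, 4.59 and 4.62 in Atf6a-/- vehicle livers, against 9.93, 9.70 and 9.64 in wild-type TM livers and 4.40, 4.48 and 4.36 in wild-type vehicle livers. All 6 vehicle values lay below the array medians, so the folds and the share rest on a dim baseline. The response was 3.65 ± 0.14 (12.5-fold) in Atf6a-/- and 5.34 ± 0.14 (40.6-fold) in wild-type livers, which is 68.3% of the wild-type log2 response. *Cavin2*, a caveola coat protein gene on the other side, read 8.93, 8.66 and 8.72 in Atf6a-/- TM livers and 9.17, 9.05 and 8.85 in Atf6a-/- vehicle livers, against 8.75, 9.01 and 9.17 in wild-type TM livers and 9.21, 8.79 and 9.32 in wild-type vehicle livers. Its 2 TM groups overlapped, and its difference in response was -0.12 ± 0.22 with a limma adjusted p of 0.90.

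**Figure D3:**
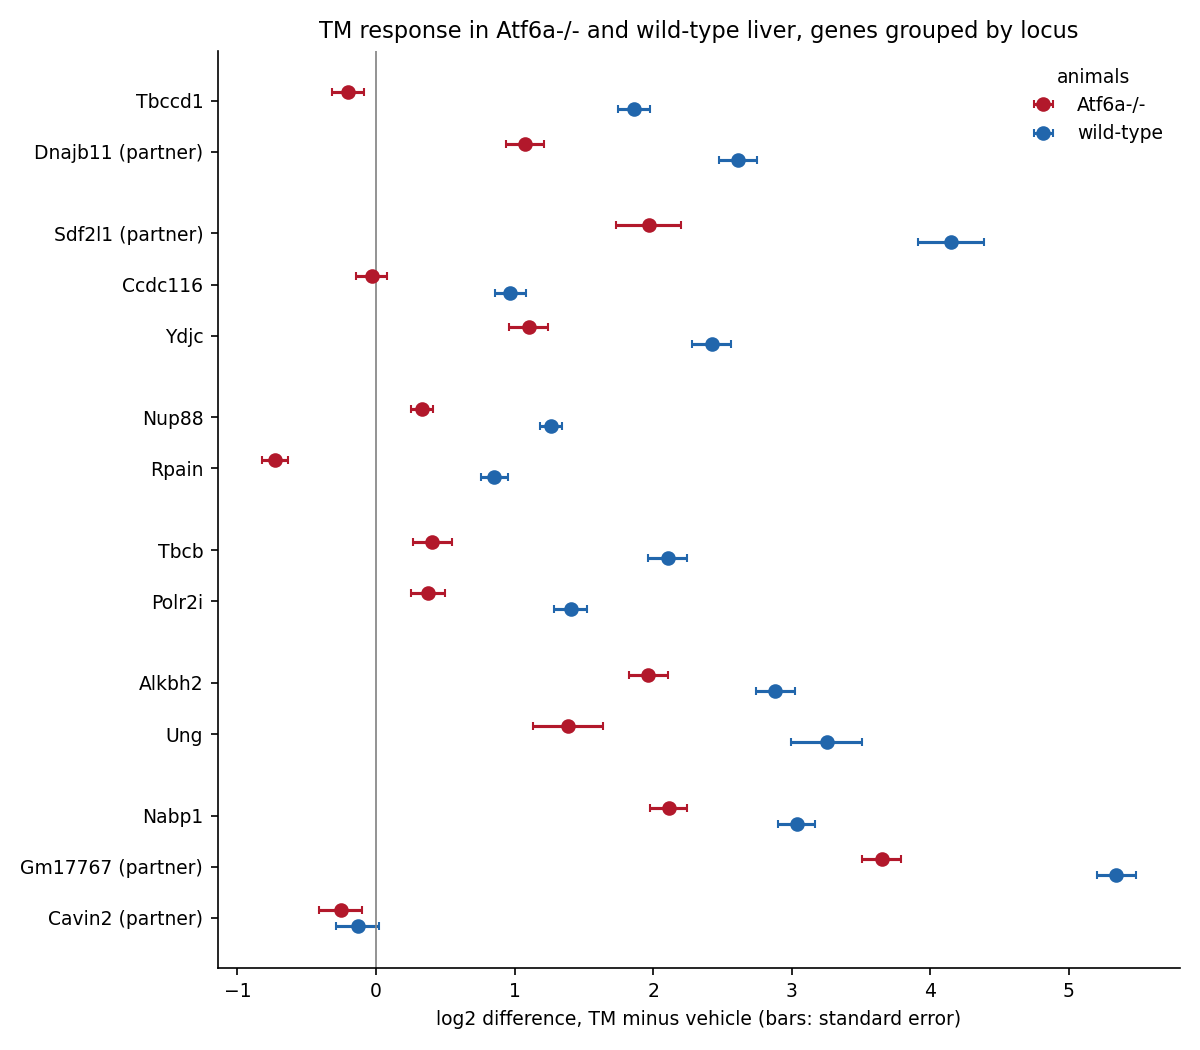
TM response (log2, TM minus vehicle, bars are standard errors) in Atf6a-/- livers and wild-type livers for the members and their partners, grouped by locus. *Rpain* is the one gene whose Atf6a-/- value (-0.73) lies well below 0, and *Gm17767* reaches 5.34 in wild-type livers.

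The vehicle values of both genotypes enter the difference in response on which the members were chosen, so they too are a description. With vehicle, limma called 0 of the 18 member probesets between the genotypes, where 0% of all probesets were called in either direction (0 of 45037, with 1618 or 3.59% at an unadjusted p under 0.05). Of the member probesets, 2 of 18 had an unadjusted p under 0.05. The difference, Atf6a-/- minus wild-type, ran from -0.45 to 0.23 over the 18 member probesets, and on the brightest probesets from -0.17 (*Alkbh2*, ± 0.14 SE) to 0.16 (*Polr2i*, ± 0.12 SE). The low end came from 3 other *Nabp1* probesets, at -0.41, -0.36 and -0.45 with vehicle, against differences of -1.02, -0.90 and -1.08 under TM. The Atf6a-/- vehicle livers lay below the wild-type vehicle livers without overlap for *Nup88* alone, at 9.29 against 9.38 on average, a pattern seen on 3.56% of all probesets. With 3 arrays per group the SE of these differences was 0.08 to 0.30. Fewer cells of a type and less RNA per cell cannot be told apart in such homogenates.

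Over all 18145 measured genes with a position, 18122 pairs of next neighbours were formed and 136 genes had a difference in response called lower. In 7 pairs both genes were called lower. These 7 pairs hold all of the members with their partners *Dnajb11*, *Sdf2l1* and *Gm17767* and no other gene, since that is how the members were chosen. In 2 pairs both genes were called higher, out of 193 genes called higher. Between the genotypes under TM alone, both genes were called lower in 15 pairs and higher in 21 pairs, out of 279 genes called lower and 526 called higher. There were 167 uncalled next neighbours at most 20000 bases from a gene called lower, counted once for each such pair. Of these, 91 lay below 0, with a median of -0.03. The lowest of them were *Manf*, an ER stress-induced secreted protein gene next to *Rbm15b* at 1677 bases (-1.35, adjusted p = 0.093 in limma), *Atp11a* next to *Mcf2l* at 5077 bases (-1.11, adjusted p = 0.54) and *Unc13b*, which overlaps *Fam214b* (-1.07, adjusted p = 0.73). The members with the smallest difference were *Alkbh2* and *Nabp1*, both at -0.92, and *Nup88*, at -0.93.

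Beyond the 6 loci, 5 measured genes on each side were examined, whatever their distance. The farthest, *Col5a2*, lay 5961686 bases from *Nabp1*. The nearest gene on a side would have been counted with the locus had it been called lower, so the choice itself keeps lower calls out there. None of the 60 had a difference in response that was called, higher or lower, where 1.06% and 0.748% of all genes were, with 6 at an unadjusted p under 0.05 and over 1.5-fold. The values ran from -0.75 to 1.02 with a median of -0.06, against a median of -0.02 over all genes. *Usp30*, 416 bases from *Alkbh2*, had a difference of 0.10 ± 0.15, *Rabep1* and *C1qbp*, which overlap *Nup88* and *Rpain*, had 0.39 ± 0.16 and 0.26 ± 0.14, and *Crygs*, 1804 bases from *Tbccd1*, had -0.12 ± 0.22. These 4 were named for lying closest. *Crygs* lay below the array medians on every array, as did *Rimbp3* and *Zfp82* among others of the 60. The lack of a call on such dim probesets says little.

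Under TM itself, 3 of the 60 flanking genes were called higher in Atf6a-/- livers and 0 lower, where 2.89% and 1.53% of all genes were. *Zfp566*, a zinc finger gene 133619 bases from *Tbcb*, read 6.15, 5.73 and 6.11 in Atf6a-/- TM livers against 5.19, 5.14 and 5.38 in wild-type TM livers, a difference of 0.76 ± 0.14 (limma adjusted p = 0.0085). *Wdr75*, a gene of ribosomal RNA processing 5641330 bases from *Nabp1*, differed by 0.92 ± 0.20 (limma adjusted p = 0.020). *Tra2b*, a splicing regulator gene 547209 bases from *Tbccd1*, differed by 0.70 ± 0.15 (limma adjusted p = 0.022). Without wild-type TM replicate 2 none of the 60 was called, and without Atf6a-/- TM replicate 1, Atf6a-/- TM replicate 3 or wild-type TM replicate 3 only *Zfp566* was. With TM against vehicle, 9 flanking genes were called higher and 11 lower in Atf6a-/- livers, and also 9 higher and 11 lower in wild-type livers, where 13.1% and 8.21% of all genes were called in Atf6a-/- and 8.92% and 6.90% in wild-type livers. The Atf6a-/- TM livers lay below the wild-type TM livers without overlap for 12 of the 60, and above them for 13, where 10.2% and 13.4% of all genes showed these patterns.

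**Figure D4:**
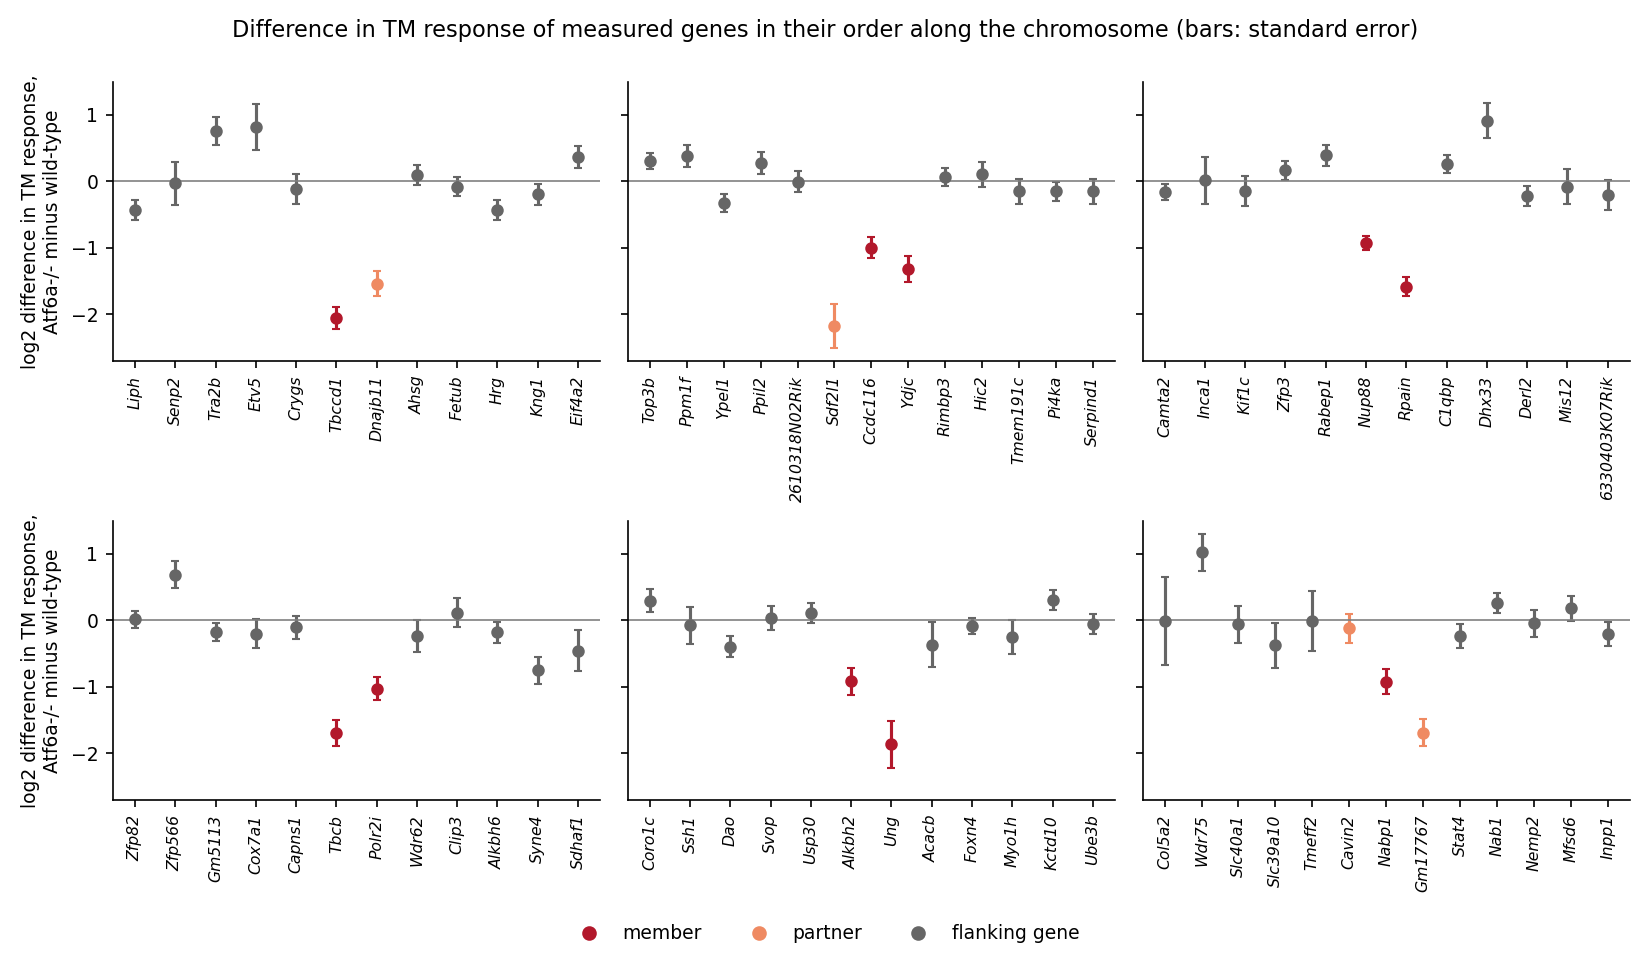
Difference in TM response (log2, Atf6a-/- minus wild-type, bars are standard errors) of the measured genes in each of the 6 loci, in chromosomal order and not to scale of distance. Members lie between -2.06 and -0.92, partners other than *Cavin2* between -2.18 and -1.54, and the 60 flanking genes between -0.75 and 1.02.

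Genes related to the members in function were counted in the same way, against 1.06% of all genes called higher and 0.748% called lower in the difference in response, and 2.89% and 1.53% under TM. Of 5 other tubulin folding cofactors, 1 had a difference in response that was called, and it was higher: *Tbcc*, cofactor C, read 8.65, 8.47 and 8.33 in Atf6a-/- TM livers and 7.72, 7.74 and 7.70 in Atf6a-/- vehicle livers, against 8.03, 7.91 and 7.90 in wild-type TM livers and 7.97, 7.87 and 8.18 in wild-type vehicle livers. Only the Atf6a-/- TM livers stood high, and the Atf6a-/- vehicle livers lay below the wild-type vehicle livers without overlap (-0.29 ± 0.11). Under TM the genotypes differed by 0.54 ± 0.11, which was under 1.5-fold and so not called. The difference in response, to which the vehicle values add, was called at 0.83 ± 0.15 (limma adjusted p = 0.020). The call was lost without Atf6a-/- vehicle replicate 1 or 2, wild-type TM replicate 2 or 3 or wild-type vehicle replicate 3 (highest adjusted p = 0.066), and with arrays centred on *Btf3* and *Ppia* (adjusted p = 0.12). The range over the 5 cofactors was 0.03 to 0.83, and 0 were called lower.

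Of the 22 measured of 24 other nuclear pore proteins, 0 were called lower and 4 higher in Atf6a-/- than in wild-type livers under TM: *Rae1* by 0.73 ± 0.13, *Nup153* by 0.69 ± 0.14, *Nup43* by 0.67 ± 0.11 and *Nup54* by 0.63 ± 0.15 (adjusted p = 0.0080, 0.017, 0.0047 and 0.030). One of them, *Nup43* of the Y-shaped scaffold complex, also had a difference in response that was called, 0.77 ± 0.16 (adjusted p = 0.039). That call was lost in 13 of 19 alternatives, among them leaving out any array other than Atf6a-/- TM replicate 1 and Atf6a-/- vehicle replicate 2 (highest adjusted p = 0.11). *Nup88* thus lay on the other side of 0 from the relatives that were called. None of the 10 measured of 12 other RNA polymerase II subunits was called in either contrast (difference in response from -0.12 to 0.68, with *Polr2i* at -1.03).

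Among 16 measured of 18 other genes of base excision and direct DNA repair, none had a difference in response that was called, and *Alkbh1*, a relative of *Alkbh2*, was higher in Atf6a-/- livers under TM by 0.76 ± 0.16 (adjusted p = 0.017). Of 7 other genes of replication protein A and the SOSS complex, *Ints3*, the SOSS subunit that binds *Nabp1* protein, was called lower. It read 8.48, 8.58 and 8.73 in Atf6a-/- TM livers and 7.74, 7.97 and 7.70 in Atf6a-/- vehicle livers, against 9.62, 10.41 and 10.09 in wild-type TM livers and 7.81, 7.82 and 8.00 in wild-type vehicle livers. All TM livers were above their controls and the TM groups did not overlap. Its response was 0.79 ± 0.17 in Atf6a-/- and 2.17 ± 0.17 in wild-type livers, with a difference of -1.37 ± 0.23 (adjusted p = 0.014). Between the genotypes under TM alone, *Ints3* (-1.45) and its neighbour *Slc27a3* (-0.81), 544 bases away, were both called lower in Atf6a-/- livers.

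The list of 18 known ATF6 targets of the ER, which includes *Dnajb11* and *Sdf2l1*, had 8 genes with a difference in response called lower and 0 higher, and 11 called lower under TM. The values ran from -3.25 to -0.28 with a median of -1.11, where the 10 members had a median of -1.17. *Derl3*, a component of ER-associated degradation, had a difference of -3.25 ± 0.36, *Creld2* one of -2.91 ± 0.29, the disulfide isomerase *Pdia4* one of -2.91 ± 0.21 and *Sel1l* one of -1.69 ± 0.15 (adjusted p = 0.0010, 0.00047, 5.8e-05 and 0.00019). These were picked from the 8 called genes and do not stand for the whole list. *Hspa5*, among the uncalled genes, had a difference of -0.42 ± 0.27 and kept 77.5% of the wild-type log2 response. All 10 members lay within the range of the ER genes. They were chosen for a lower difference in response, and the ER list holds their partners *Dnajb11* and *Sdf2l1*. The nearness of the medians is therefore a description and no test. *Pdia4* had a TM response of 0.24 in Atf6a-/- and 3.14 in wild-type livers, against 0.41 and 2.10 for *Tbcb*.

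**Figure D5:**
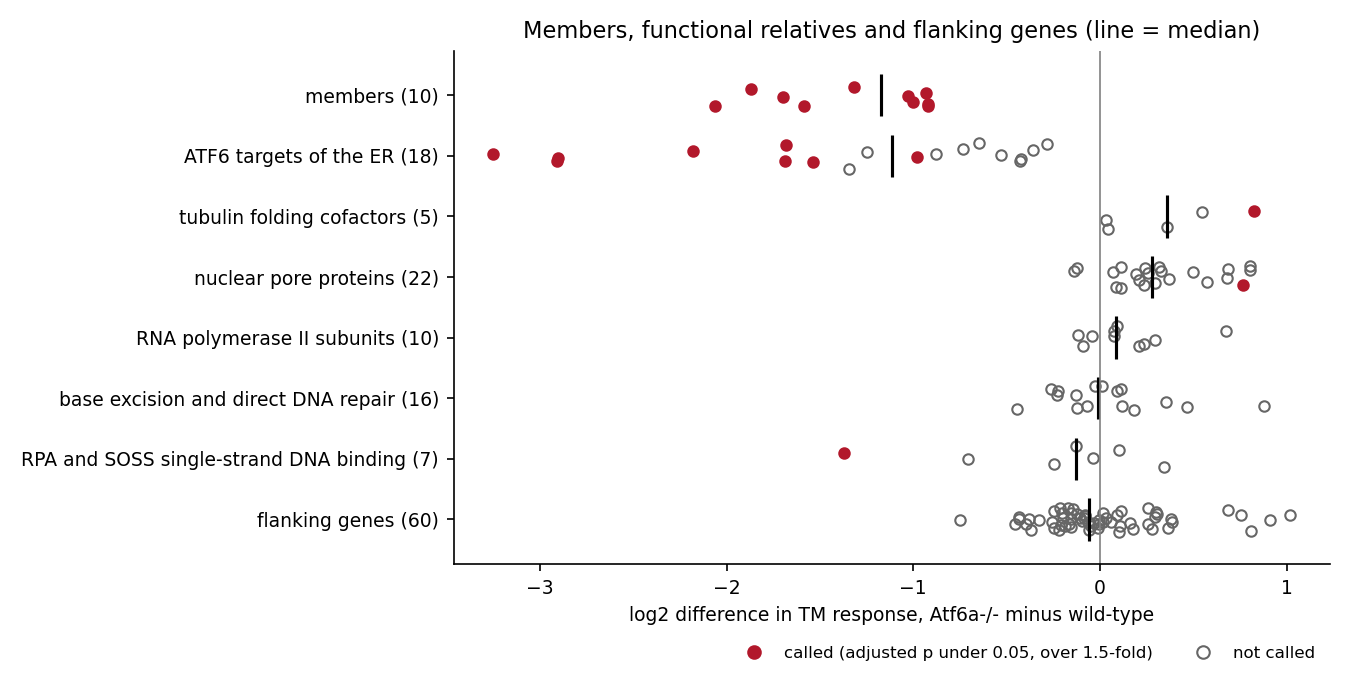
Difference in TM response (log2, Atf6a-/- minus wild-type) of the members, their functional relatives and the flanking genes, 1 point per gene, filled where called, with a line at each median and the number of genes in brackets. The members (median -1.17), which were chosen for a low value here, and the ATF6 targets of the ER (median -1.11) lie left of 0. The medians of the other lists lie between -0.13 and 0.36.

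By Pearson r over the 12 arrays, with 18192 other genes compared and no test, neighbours were not always the genes most alike. The arrays share their groups, so any gene that is high in wild-type TM livers scores well. *Nabp1* was most like *Sec11a*, *Ccdc134* and *Piga* (r = 0.996, 0.994 and 0.991), and *Gm17767* came at rank 5 with r = 0.990. *Tbcb* and *Polr2i* stood at r = 0.964 (ranks 22 and 26 from either side), and *Alkbh2* and *Ung* at r = 0.960 (ranks 108 and 43). *Tbccd1* and *Dnajb11* stood at r = 0.851, which is rank 139 for *Tbccd1*, behind *B230217C12Rik*, *Cyld* and *Pim2* (r = 0.985, 0.982 and 0.981). *Nup88* and *Rpain* stood at r = 0.703 (ranks 765 and 228), and *Nabp1* and *Cavin2*, which was called in none of the contrasts, at r = -0.406 (rank 10805 for *Nabp1*).

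The genes nearest to each of these 2 differed too. *Nup88* was most like *Phkg2*, *Nde1* and the member *Tbcb* (r = 0.992, 0.991 and 0.984), and *Rpain* was most like *Mroh1*, *Kctd7* and *Sharpin* (r = 0.980, 0.965 and 0.964), all of which had TM responses below 0 in Atf6a-/- and above 0 in wild-type livers. *Ydjc* was most like *Irx3*, *Suco* and *Sel1l* (r = 0.982 each) and stood closer to *Sdf2l1* (r = 0.980, rank 7) than to the overlapping *Ccdc116* (r = 0.862, rank 376). *Ccdc116* was most like *Edem1*, *Mxd1* and *Cyld* (r = 0.973, 0.960 and 0.958).

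Among the remaining members, *Ung* was most like *Irx3*, *Sdf2l1* and *Dnajc10* (r = 0.989, 0.988 and 0.987) and *Alkbh2* most like *Piga*, *Tspyl2* and *Calr* (r = 0.988 each). *Tbcb* was most like *Papss1*, *Pdia4* and *Nde1* (r = 0.991, 0.988 and 0.985). *Polr2i* was most like *Slc26a2*, *Pqbp1* and *Get3* (r = 0.988, 0.983 and 0.983).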

How the data were processed

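The members, gene lists, motifs and tests were chosen with earlier results of these data known. RMA is the source of the log2 values that the authors deposited. It subtracts background, quantile normalizes and summarizes probes to probesets. The submitters' processing notes name RMA, affy and limma without versions. RMA forces like distributions on all arrays and shrinks changes of dim probesets. Of 45101 probesets, 64 controls were left out. Probesets were named through the platform annotation, with symbols updated by Entrez ID to RefSeq: 34945 name 1 gene, and the brightest probeset stood for each of 18193 genes. limma 3.58.1 in R 4.3.3 fitted 1 mean per group over all 12 arrays, with moderated variances (8 residual and 4.25 prior degrees of freedom) and Benjamini-Hochberg adjustment over all 45037 probesets. The contrasts set TM against vehicle within a genotype, the genotypes under each treatment, and the difference in TM response. SE values are limma's. Promoter windows came from RefSeq, GRCm38.p6. Named were all members and partners, flanking genes called between genotypes, at most 4 relatives per list that were called, and the 3 genes most like each member. *Hspa5* and *Slc27a3* were named in addition. The labels call the animals of a group separate mice, and their numbers were not taken as pairs. Alternatives were another normalization, centring on *Btf3* and *Ppia* (the *Ppia* probeset also names *Gm9234*), other variance models, a covariate for sex, a filter on dim probesets, averaging the probesets of each gene, the t-test, and leaving out each array. The scripts were tested on simulated data.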

Additional observations from a re-analysis of the deposited data

Results flagged for a closer look

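The following genes are listed because their TM response differed between the genotypes in a test of that difference (the interaction in limma). For the members this is how they were chosen, so their values are repeated as a description. The difference in TM response, Atf6a-/- minus wild-type on the log2 scale, was -2.06 for *Tbccd1*, -1.001 for *Ccdc116*, -1.32 for *Ydjc*, -0.93 for *Nup88* and -1.58 for *Rpain*. It was -1.70 for *Tbcb*, -1.03 for *Polr2i*, -0.92 for *Alkbh2*, -1.87 for *Ung* and -0.92 for *Nabp1*. For the partners it was -1.54 for *Dnajb11*, -2.18 for *Sdf2l1* and -1.69 for *Gm17767*.

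Among functional relatives, the difference was 0.83 for *Tbcc*, 0.77 for *Nup43* and -1.37 for *Ints3*. Groups of 3 arrays are too small for a test of single outlying livers.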

How the results depend on the processing

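The count of member probesets with a called difference in response, 13, ran from 10 to 12 when single arrays were left out. The call of *Alkbh2* was lost without any array other than Atf6a-/- TM replicate 3 and wild-type TM replicate 1, and also with array weights and with a trend in the variance. That of *Nabp1* was lost without any array other than Atf6a-/- TM replicate 2 and wild-type vehicle replicate 2, and that of *Ung* without Atf6a-/- TM replicate 1, Atf6a-/- vehicle replicate 1 or 2, wild-type TM replicate 2 or 3 or wild-type vehicle replicate 3. Under TM the count of 16 lay at 16 to 17 without single arrays, and the methods' t-test with adjustment over all probesets called 0 member probesets and 0 flanking genes. The cause was not tested. The counts for TM against vehicle stayed at 9 in Atf6a-/- and 17 in wild-type livers, and that with vehicle at 0, without any single array. Flanking genes called under TM, 3 in all, numbered 0 to 4 without single arrays, and 5 without adjustment, by limma or by the t-test. Flanking genes with a called difference in response, 0 in all, numbered 0 to 1 (*Wdr75*, 1.25, without Atf6a-/- vehicle replicate 3, and *Syne4*, -0.89, without wild-type TM replicate 1), and 6 without adjustment. A t-test of the difference in response was not run, since the methods name none. On the strand of the gene alone the NF-Y box was in the windows of 3 members and CCACG in those of 2. The call of *Ints3* held in all 19 alternatives, that of *Tbcc* in 13 and that of *Nup43* in 6, as added after seeing the data. The numbers of the animals were not taken as pairs. Correlations of deviations between animals of one number ran from -0.48 to 0.39, which with 3 animals per group cannot settle whether they are. With the number as a replicate block the counts were 14 for the difference in response and 17 under TM. No called value of a member changed sign under any alternative. With the mean of all its probesets, *Rpain* was called in neither genotype for TM against vehicle (-0.54 in Atf6a-/- and 0.49 in wild-type livers), and its difference was -1.03. Values below the array medians, of *Ccdc116* on all arrays and of *Ydjc*, *Gm17767* and the 2 dimmest *Nabp1* probesets with vehicle, limit how well their folds are known. The same holds for the *Nabp1* probeset that kept 82.9%, which lay below them in part of the vehicle livers.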
